A study of Mus musculus with 2 samples.

Results

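The S100 proteins are small calcium-binding proteins, several of which also bind zinc. The 10 S100 genes described here, S100a3, S100a4, S100a6, S100a8, S100a9, S100a10, S100a11, S100a13, S100a14 and S100a16, were taken by symbol from a table of 23233 genes. All 10 had at least 1 RPKM in a library, as did 12249 genes in all, and S100a9 reached that level in ZIP10-positive cells only. RPKM is the number of reads of a gene scaled to transcript length and to the mapped reads of its library. The table holds 1 library of ZIP10-positive and 1 library of ZIP10-negative cells, both from ventral skin of C57BL/6 mice aged 7 days. ZIP10, encoded by Slc39a10, is a zinc importer of the cell membrane. Cells were sorted by fluorescence after staining with an anti-ZIP10 polyclonal antibody and 7-AAD, a dye that enters dead cells, so each library can mix several cell types. The titles name hair follicles as the source, whereas the protocol starts from whole minced skin, and the number of mice is not stated. As each group is 1 library, no test was possible, and every difference below describes these 2 libraries. In such libraries, fewer cells of a type and less RNA per cell cannot be told apart.

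S100 proteins carry paired EF-hand motifs and mostly act as dimers that bind and regulate partner proteins when calcium rises. S100a8 and S100a9 form calprotectin, which neutrophils and monocytes hold in large amounts and which withholds zinc and manganese from microbes after release. S100a3 is a cysteine-rich protein of the hair cuticle that binds zinc, and S100a14 and S100a16 are mainly epithelial. S100a4, S100a6, S100a10 and S100a11 occur in many cell types and bind myosin, ubiquitin ligase components or annexins.

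As deposited, each of the 9 members at 1 RPKM or more in both libraries was higher in ZIP10-positive cells, as were 83.9% of all 9620 such genes. S100a9 passed the filter through ZIP10-positive cells only and so had to be higher there. It is included in the counts of members below. For 9 of the 10, or 8 without S100a9, the difference reached 2-fold on the scale log2((positive + 1)/(negative + 1)), with S100a4 the exception. On that scale 44.1% of the 12249 genes compared were 2-fold or more higher and 3.55% were 2-fold or more lower. The median log2 ratio of the 10 genes was 2.33, against 0.87 for all genes compared. Since most genes were higher in that library, values were also taken relative to the median gene, whose ratio over those 9620 genes was 1.97. Relative to the median gene 6 of the 10, or 5 without S100a9, were 2-fold or more higher and none lower, against 14.7% and 11.4% of all genes. The 6 were S100a3, S100a8, S100a9, S100a13, S100a14 and S100a16. The median log2 ratio was then 1.38, against 0.094 for all genes. The other 4 genes lay within 2-fold of the median gene. When the libraries were scaled on genes beyond the top 50 in abundance, 6 members were still 2-fold or more higher, against 9.74% of all genes, and none lower, against 17.5%. When globin genes and the ribosomal transcript Rn45s were left out of the scaling, 4 were higher, against 8.99%, and none lower, against 19.2%.

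**Figure D1:**
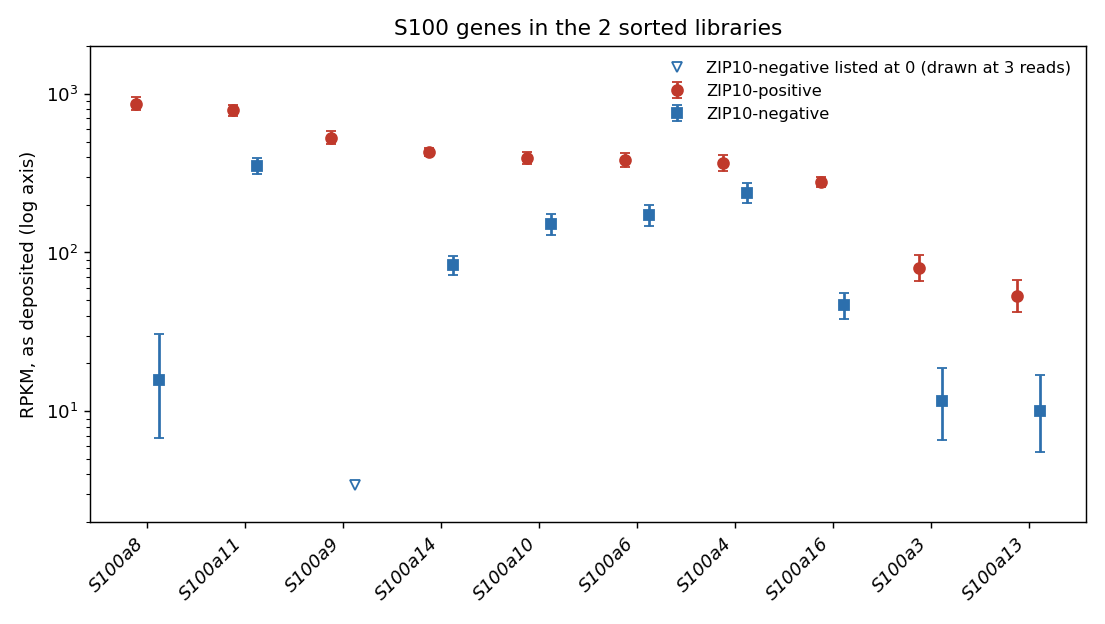
RPKM of the 10 S100 genes (log axis) in the ZIP10-positive (circles) and ZIP10-negative (squares) library, ordered by the ZIP10-positive value, with exact Poisson 95% intervals from estimated reads that cover counting error only. S100a9, listed at 0 in the ZIP10-negative library, is drawn as an open triangle at 3 reads, or 3.45 RPKM. Every gene is higher in the ZIP10-positive library, and the gap as drawn is widest for S100a8 and S100a9 and narrowest for S100a4.

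The depth behind these values was estimated at 2785700 reads for ZIP10-positive cells and 2717380 for ZIP10-negative cells, so the 10 genes rested on 76 to 1051 reads in the first and 0 to 294 in the second. Intervals below are 95% intervals from these estimated reads. They cover counting error only and not the spread between mice. Slc39a10 itself, which checks the labels, stood at 49.4 against 11.1 RPKM. That is a ratio of 4.43 as deposited, where the median gene had a ratio of 1.97. Of the RPKM total, globin transcripts held 59.4% in the ZIP10-negative library and 3.46% in the ZIP10-positive one, and their part in the shift of the median gene was not tested.

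Among the 9 members with a value in both libraries, the calprotectin gene S100a8 differed most. S100a8 stood at 865 RPKM (787 to 949) in ZIP10-positive cells and at 15.7 RPKM (6.76 to 30.9) in ZIP10-negative cells. The counting intervals did not overlap, and the ratio was 55.2 (27.8 to 129), from 453 and 8 reads. Relative to the median gene, taken as fixed, S100a8 was 28.0-fold higher (14.1 to 65.3). Among the 9620 genes at 1 RPKM or more in both libraries its ratio ranked 3. S100a9 stood at 530.01 RPKM (483 to 580.05) in ZIP10-positive cells and had a listed value of 0 in the other library. The gene was thus among the abundant transcripts of one library, at rank 179, without a value in the other. At the estimated depth and with a longest coding transcript of 519 bases, 1 read of S100a9 is worth 1.15 RPKM and 3 reads 3.45 RPKM. No fold is given against a listed 0, which may stand for an estimate that failed. Of 753 genes at 100 RPKM or more in ZIP10-positive cells, 21 had a 0 in ZIP10-negative cells, and of 313 genes at that level in ZIP10-negative cells 6 had a 0 in ZIP10-positive cells. Psmg4, a broadly expressed proteasome assembly gene, was also listed at 0 in ZIP10-negative cells, against 69.5 RPKM.

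S100a8 and S100a9, the calprotectin genes, lie side by side on chromosome 3, and their promoter sequences are shown. They run from 250 bases before to 50 bases after the RefSeq start on build GRCm38.p6, a later build than the mm9 of the deposited values, and no read is assigned to them. That of S100a8 is chr3:90668821-90669120 on the plus strand and that of S100a9 is chr3:90695672-90695971 on the minus strand. Capitals mark matches to the motifs searched on both strands, which were TATAAA for the TATA box, TGANTCA for AP-1, TTGCNNAA for C/EBP, GAGGAA for the core bound by PU.1 and other ETS factors, and TGCGCNC or TGCACNC for the metal response element.
S100a8: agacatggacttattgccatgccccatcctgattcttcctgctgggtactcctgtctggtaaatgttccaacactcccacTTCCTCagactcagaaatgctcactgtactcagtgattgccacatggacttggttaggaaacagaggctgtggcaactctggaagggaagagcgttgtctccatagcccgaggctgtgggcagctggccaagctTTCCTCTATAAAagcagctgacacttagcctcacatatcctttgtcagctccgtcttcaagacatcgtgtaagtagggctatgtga
S100a9: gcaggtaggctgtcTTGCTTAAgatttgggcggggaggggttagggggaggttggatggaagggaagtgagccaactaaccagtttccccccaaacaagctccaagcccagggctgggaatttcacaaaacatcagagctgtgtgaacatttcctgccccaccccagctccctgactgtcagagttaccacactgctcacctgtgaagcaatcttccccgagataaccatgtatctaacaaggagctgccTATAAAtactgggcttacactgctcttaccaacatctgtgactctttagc

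Both promoters hold TATAAA, as do 13.6% of the 32851 promoters of this length in the table. Positions count from the annotated start as 0, with negative numbers upstream. In S100a8 the match begins at -30 and directly follows TTCCTC, which is GAGGAA read on the other strand. In S100a9 it begins at 0, the annotated start itself. S100a8 holds another TTCCTC at -170, and GAGGAA on either strand occurs in 28.3% of promoters. S100a9 holds TTGCTTAA, a match to TTGCNNAA, at -236, and 10.8% of promoters hold such a match. Neither window holds TGCGCNC or TGCACNC, found in 15.4% and 12.6% of promoters, or TGANTCA, found in 7.81%. Among the other members TATAAA occurred in the promoter of S100a4, at -31, and in 1 of 4 promoters of S100a3. TGCACNC occurred in 1 promoter each of S100a3 and S100a16. TGANTCA occurred at -136 and -38 in S100a11 and at -192 in a promoter of S100a16. GAGGAA on either strand, as in S100a8, occurred also in promoters of S100a3, S100a16, S100a11 and S100a4. Such matches describe letters in a window. Promoters were matched for 8 of the 10 members, all but S100a10 and S100a14.

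Markers of neutrophils, in which calprotectin is abundant, summed to 603 RPKM in ZIP10-positive cells against 5.11 RPKM in ZIP10-negative cells. Of the 17 compared, 15 reached 1 RPKM in ZIP10-positive cells only and so had to be higher there, and 11 had a 0 in ZIP10-negative cells. Of those at 1 RPKM or more in both libraries, Prtn3 and Ltb4r1, a granule protease and a leukotriene receptor, stood at 5.63 and 13.6 RPKM against 1.44 and 1.86 RPKM. The granule protein genes Ngp and Camp stood at 127 and 106 RPKM and the stefin gene Stfa2l1 at 123 RPKM, each against a listed 0. Stfa2l1 and Stfa2 have near-identical relatives that can share reads. Mpo and Elane, enzymes of early neutrophil granules, were listed at 0 in both libraries. Macrophage and monocyte markers summed to 1217 against 55.5 RPKM, and 8 of the 13 compared reached 1 RPKM in ZIP10-positive cells only. Lyz2, Tyrobp and Cd68, which encode lysozyme, a myeloid signalling adaptor and a lysosomal protein, stood at 772, 280 and 31.3 RPKM against a listed 0, 37.6 and 10.99 RPKM. The part of these cells in the S100a8 and S100a9 values was not tested.

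The members S100a3, S100a13, S100a14 and S100a16, grouped here with their ratios known, were 5.18-fold to 6.89-fold higher in ZIP10-positive cells. S100a3, the cuticle protein, stood at 79.9 RPKM (65.8 to 96.1) against 11.6 RPKM (6.63 to 18.8). Its ratio was 6.89 (4.06 to 12.5), or 3.50 (2.06 to 6.32) relative to the median gene. S100a16, an epithelial member, stood at 279 RPKM (259 to 301) against 46.4 RPKM (38.3 to 55.7), a ratio of 6.02 (4.93 to 7.40). This was 3.05 (2.50 to 3.75) relative to the median gene. S100a14, a second epithelial member, stood at 431 RPKM (405 to 458) against 83.2 RPKM (72.0 to 95.6). Its ratio of 5.18 (4.44 to 6.06) was the most precise of these, and relative to the median gene it was 2.63 (2.26 to 3.07). S100a13, which takes part in the release of growth factors and cytokines that lack a signal peptide, stood at 53.4 RPKM (42.1 to 66.9) against 10.1 RPKM (5.52 to 16.9). Its ratio was 5.30 (2.97 to 10.1), or 2.69 (1.51 to 5.15) relative to the median gene. For each of these genes the counting intervals of the 2 libraries did not overlap as deposited, where the median gene had a ratio of 1.97. The share of all genes without such overlap was not taken. The intervals of their ratios overlapped for every neighbouring pair in the order of ratios. Scaled on genes beyond the top 50 they stayed 2-fold or more higher, at log2 ratios of 1.03 to 1.41. Without globin genes and Rn45s in the scaling, S100a14 and S100a13 were just short of 2-fold, at 0.97 each on the log2 scale.

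Most epidermal and follicle markers differed less than these members. As the members were grouped with their high ratios known and the lists were not, that contrast is partly set by the grouping. Of 10 basal keratinocyte markers compared, 7 were at least 2-fold higher as deposited. Relative to the median gene 1 was, with a median log2 ratio of 0.28 for the list. The keratin genes Krt5, Krt14 and Krt15 stood at 1021, 758 and 466 RPKM against 222, 311 and 219.9 RPKM. Krt5 had a ratio of 4.59 (4.30 to 4.91), which overlapped that of S100a14. Dst, a low gene at 1.37 against 0.17 RPKM, had a ratio of 7.92 (4.16 to 16.2). It is among the 7, but it passed the filter through ZIP10-positive cells only and so had to be higher there. Of 12 suprabasal and cornified epidermis markers 4 were higher and 2 lower as deposited. Taking the median gene as zero, 3 were lower and none higher. Dmkn, Lypd3 and Krt77 led this list, at 168, 154 and 39.1 RPKM against 50.7, 65.9 and 37.4 RPKM. Of 9 hair cuticle and shaft markers 2 were higher and none lower as deposited, while on the median-gene scale 2 were lower and none higher. Krt35 and Krt85, hair keratins, stood at 109 and 37.7 RPKM against 59.7 and 24.5 RPKM, and Msx2, a transcription factor of the hair matrix, at 34.8 against 9.96 RPKM. Of the same list, Krt32, Krt36, Krt39 and Krt40 were listed at 0 in both libraries, and Krt82 was listed at 0 in ZIP10-positive cells and at 0.78 RPKM in ZIP10-negative cells. These genes were named with their values known. The 9 compared included also Krt31 and Hoxc13, at 14.8 and 10.1 RPKM against 17.7 and 5.29 RPKM. The rest were Krt34, Krt81, Krt86 and Foxn1, with ratios of 1.99, 2.35, 2.07 and 0.49. The part of hair cuticle cells in the S100a3 ratio of 6.89 was not tested.

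**Figure D2:**
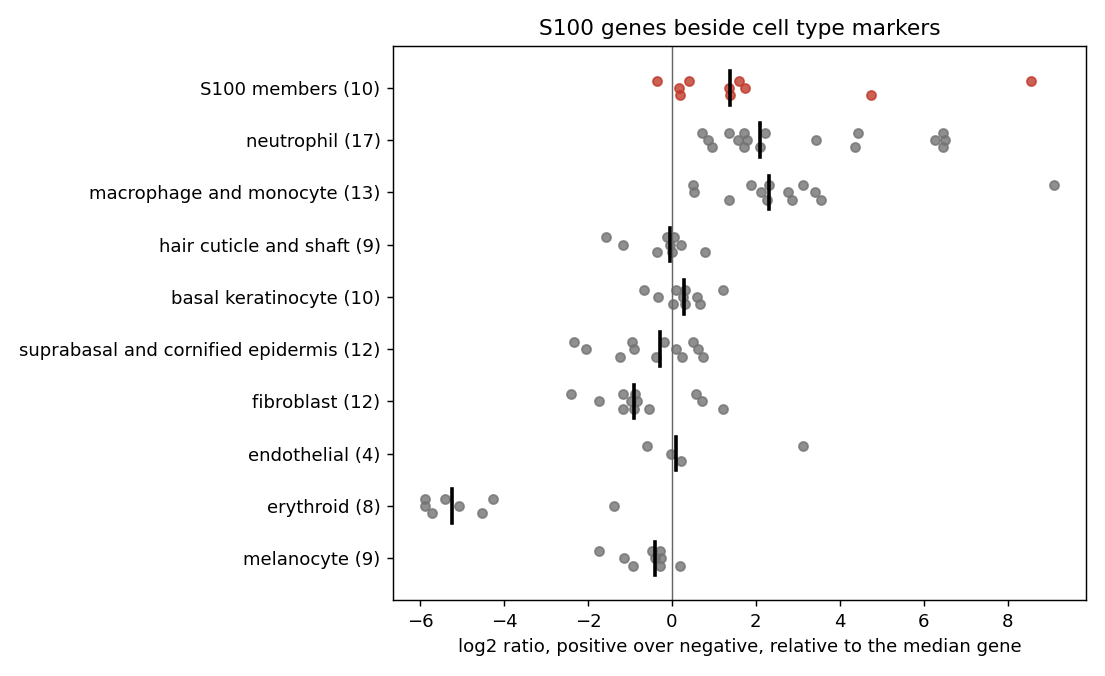
Log2 ratio of ZIP10-positive over ZIP10-negative cells relative to the median gene, pseudocount 1, for each S100 gene (top) and each compared marker of 9 cell types (number of genes in brackets); black bars are medians. The S100 genes spread from -0.36 to 8.56, with a median of 1.38. The upper end is S100a9, set by the pseudocount over a listed 0, and S100a8 is next at 4.75. Neutrophil and macrophage markers, most of which passed the filter through ZIP10-positive cells alone, lie to the right of 0, erythroid markers to the left.

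The broadly expressed members S100a10, S100a6, S100a11 and S100a4 lay closest to the median gene. S100a10, also named p11, which binds annexin A2, stood at 393 RPKM (359 to 429) against 150.3 RPKM (129 to 174). Its ratio was 2.62 (2.20 to 3.12), or 1.33 (1.12 to 1.58) relative to the median gene. S100a6, calcyclin, stood at 384 RPKM (347 to 424) against 172 RPKM (147 to 199.5), a ratio of 2.24 (1.86 to 2.70). S100a11, a partner of annexin A1, stood at 786 RPKM (727 to 847) against 352 RPKM (313 to 395), a ratio of 2.23 (1.94 to 2.57). Relative to the median gene S100a6 and S100a11 had ratios of 1.14 (0.95 to 1.37) and 1.13 (0.99 to 1.30), intervals that include 1. S100a4, which binds non-muscle myosin and marks fibroblasts and leukocytes, stood at 365 RPKM (324 to 409.96) against 238 RPKM (205 to 275). Its ratio of 1.53 (1.27 to 1.85) was the lowest of the family, and relative to the median gene it was 0.78 (0.64 to 0.94), that is, lower. The direction of these 4 genes follows the scaling. S100a6 and S100a11 turned lower, to log2 ratios of -0.16 and -0.17, when scaled on genes beyond the top 50, where S100a10 was at 0.062. Leaving globin genes and Rn45s out of the scaling put S100a10 at -0.0074, S100a6 at -0.23 and S100a11 at -0.24. S100a4 was lower under each of these scalings, at -0.36, -0.71 and -0.78.

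**Figure D3:**
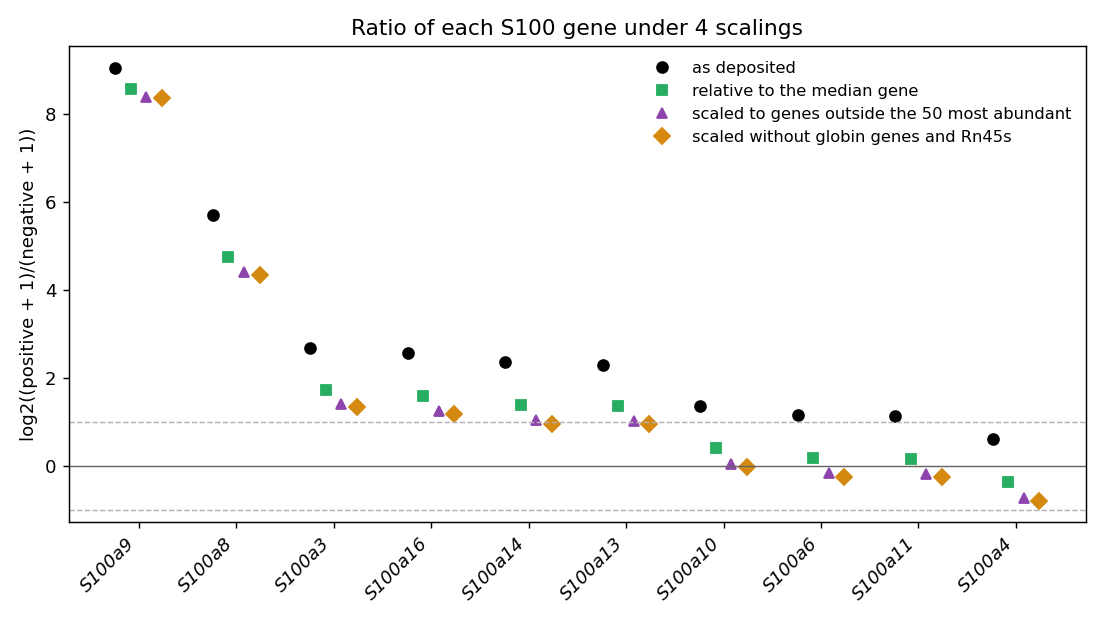
Log2((positive + 1)/(negative + 1)) of each S100 gene as deposited (circles), relative to the median gene (squares), scaled on genes beyond the top 50 (triangles) and scaled without globin genes and Rn45s (diamonds); dashed lines mark 2-fold. The height of S100a9 is set by the pseudocount over a listed 0. S100a9, S100a8, S100a3 and S100a16 stay above 2-fold under all 4 scalings. S100a10, S100a6 and S100a11 cross 0, and S100a4 lies below 0 under all but the deposited scale.

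Fibroblast markers, set beside S100a4, differed in both directions as deposited. Of 12 compared 3 were higher by 2-fold or more and 1 was lower. On the median-gene scale these numbers were 1 and 4. Vim, Sparc and Col1a1, which encode vimentin, osteonectin and a collagen chain, stood at 478, 245 and 97.9 RPKM against 475, 280.3 and 168 RPKM. The 4 genes that were 2-fold or more apart, named with their values known, were Lum, Dcn and Fbln1, with ratios of 6.18, 3.28 and 3.02, and Thy1, with a ratio of 0.36. The median log2 ratio of this list was 0.027 as deposited and -0.89 relative to the median gene, against 0.61 and -0.36 for S100a4.

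Shares within the family do not depend on the scaling of a library. The 10 genes summed to 4167 RPKM for ZIP10-positive cells and to 1079.5 RPKM for ZIP10-negative cells. Calprotectin genes made up 33.5% of that sum in ZIP10-positive cells and 1.45% in ZIP10-negative cells, or 1.76% if S100a9 stood at 3 reads there. S100a3, S100a13, S100a14 and S100a16 together made up 20.2% and 14.01%, respectively. The broadly expressed S100a4, S100a6, S100a10 and S100a11 made up 46.3% in ZIP10-positive cells and 84.5% in ZIP10-negative cells. All ZIP10-negative shares rest on the low value taken for S100a9 there, and would differ if its listed value stands for an estimate that failed. Without S100a8 and S100a9 the sums were 2771 and 1064 RPKM, a ratio of 2.605, or 1.32 relative to the median gene.

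The order of levels changed accordingly. In ZIP10-positive cells it ran S100a8, S100a11, S100a9, S100a14, S100a10, S100a6, S100a4, S100a16, S100a3 and S100a13. Neighbours with overlapping counting intervals there were S100a8 and S100a11, the run from S100a14 to S100a4 pair by pair, and S100a3 and S100a13. In ZIP10-negative cells the order was S100a11, S100a4, S100a6, S100a10, S100a14, S100a16, S100a8, S100a3, S100a13 and S100a9. There S100a6 and S100a10 overlapped, as did S100a8 with S100a3 and S100a3 with S100a13. S100a11 stood 22.5-fold above S100a8 in ZIP10-negative cells, whereas in ZIP10-positive cells S100a8 stood 1.10-fold above S100a11.

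Ratios too could be ordered independently of scaling. Of 36 pairs among the 9 members with a value in both libraries, 26 had ratio intervals that did not overlap. S100a8 was apart from every other member. S100a14 and S100a16 were apart from all of the broadly expressed members. S100a3 was apart from these too, but S100a13 overlapped S100a10. S100a4 was apart from every other member. With no replicate, these intervals say nothing of the spread between animals.

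**Figure D4:**
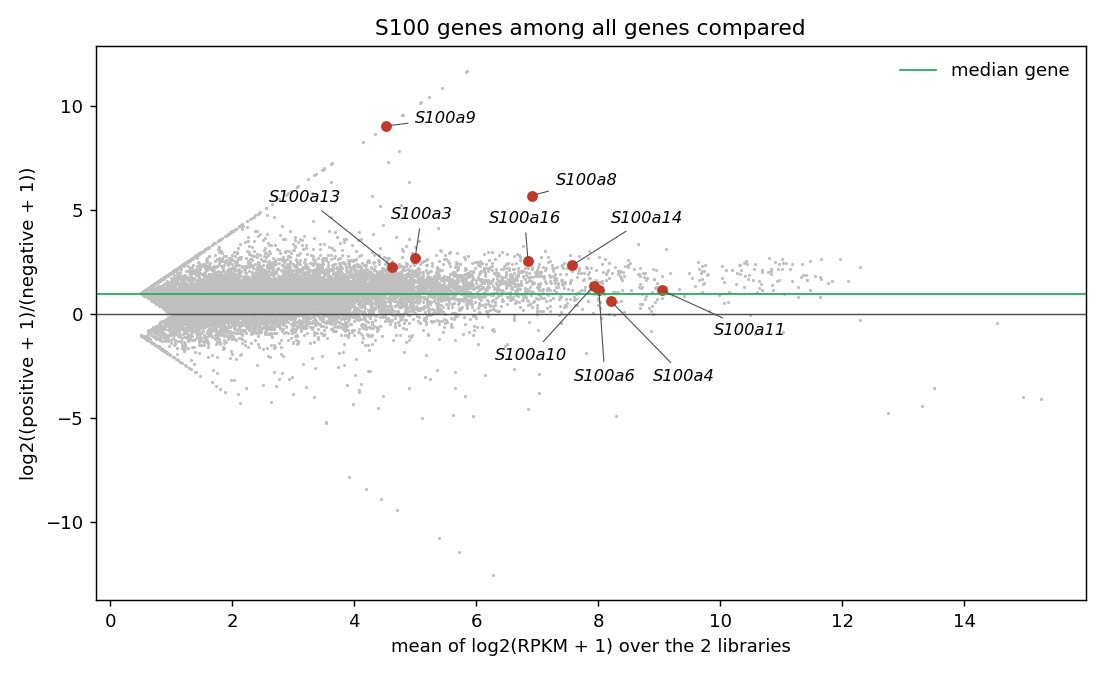
Log2((positive + 1)/(negative + 1)) against the mean of log2(RPKM + 1) for 12249 genes (grey) and the 10 S100 genes (red), with the median gene at 0.98. S100a8 and S100a9 lie at 5.70 and 9.05, the latter set by the pseudocount over a listed 0, while S100a4, S100a6, S100a10 and S100a11 lie near the line of the median gene.

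Genes most like a member were sought among those with a mean RPKM within 2-fold, by the nearest log2 ratio over the 2 libraries. For S100a8 the nearest of 164 genes, Atp5k, differed by -2.32 on the log2 scale. It was followed by Rps19-ps3, H2-Ab1, Uqcr11 and Bola2, so S100a8 had no close match at its level. For S100a3 the nearest of 1560 genes were Snrpd1, Vps29, Tmbim4, Phpt1 and Sepx1, which differed from it by -0.024 to 0.0051. For S100a11, the member with the highest mean, the nearest of 131 genes were Ptms, Gm6793, Eif3k, Prdx2 and Krt15, which differed by -0.076 to 0.015.

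Partner genes of S100 proteins inside the cell lay on both sides of the median gene. Relative to it, the ratios of those compared ran from 0.31 for Anxa6 to 1.63 for Sugt1. Of 13 listed 8 were compared, of which 5 were 2-fold or more higher as deposited and none lower. On the median-gene scale 1 was lower and none higher. Anxa2, which forms a tetramer with S100a10, stood at 281 against 126 RPKM. Its ratio of 2.23 (1.98 to 2.51) overlapped that of S100a10. S100a10 stood at 1.396 times Anxa2 in ZIP10-positive and 1.19 times in ZIP10-negative cells. Anxa1, the partner of S100a11, stood at 118 against 36.8 RPKM, and its ratio of 3.20 (2.597 to 3.96) lay above that of S100a11 without overlap. Anxa6, another annexin, went the other way at 59.6 against 97.4 RPKM, a ratio of 0.61 (0.52 to 0.72). Among genes outside the 3 most abundant of this list, named with their values known, Cacybp, which binds S100a6, stood at 25.6 against 12.1 RPKM and Myh9, the myosin bound by S100a4, at 22.6 against 15.1 RPKM. Their ratios of 2.11 (1.55 to 2.89) and 1.49 (1.27 to 1.75) overlapped those of S100a6 and S100a4. The rest of the 8 compared were Sugt1, Ahnak and Anxa11. Their ratios were 3.21 (2.71 to 3.81), 2.22 (1.97 to 2.50) and 0.95 (0.71 to 1.28). Those of Sugt1 and Anxa11 did not overlap that of S100a6.

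Receptors for extracellular S100 proteins were uneven. Ager, the receptor for advanced glycation end products, and Tlr4 were listed at 0 in ZIP10-positive cells and at 0.32 and 0.40 RPKM in ZIP10-negative cells. These are the receptors best known for S100a8 and S100a9, and both were near the limit of detection. Bsg, which encodes basigin, stood at 287 against 80.1 RPKM, a ratio of 3.59 (3.004 to 4.304), or 1.82 relative to the median gene. Nptn, its relative neuroplastin, stood at 47.4 against 33.8 RPKM and Mcam at 3.61 against 5.48 RPKM. Of the 3 compared Bsg was 2-fold or more higher as deposited, while on the median-gene scale none was, and Mcam was lower.

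Peptidylarginine deiminases convert arginine to citrulline, and S100a3 is a known substrate in hair. Padi3, the enzyme of the hair follicle, stood at 7.90 against 3.98 RPKM, a ratio of 1.98 (1.27 to 3.15), whose interval did not reach above the lower bound of 4.06 for S100a3. Padi2 stood at 2.49 against 1.82 RPKM and Padi4 at 1.495 against 0.35 RPKM. Padi1 was listed at 0 in ZIP10-positive cells and at 0.10 RPKM in ZIP10-negative cells, and Padi6 at 0 in both. None of the 3 compared was 2-fold apart on the log2 scale with a pseudocount of 1, which understates the difference of low genes such as Padi4.

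Other S100 genes were few. S100a1 stood at 76.9 against 28.7 RPKM, a ratio of 2.68 (1.81 to 4.05), and S100b, a gene of glia and melanocytes, at 10.8 against 1.52 RPKM, a ratio of 7.15 (2.15 to 37.3). Melanocyte markers summed to 293 against 209 RPKM. S100a2, S100a5, S100a7a, S100g and S100z were listed at 0 in both libraries. Of 6 genes of the S100-fused type, large epidermal proteins that begin with an S100 domain, only Tchh, which encodes trichohyalin of the inner root sheath, was above 0, at 3.71 against 4.19 RPKM. Crnn, Flg2, Hrnr, Rptn and Tchhl1 were listed at 0 in both.

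All 10 members lie on chromosome 3 in the reference annotation, in a cluster that runs S100a1, S100a13, S100a14, S100a16, S100a3, S100a2, S100a4, S100a5, S100a6, S100a7a, S100a8 and S100a9, with S100a11 and S100a10 as a separate pair beyond Tchhl1. In that order the 4 members with ratios from 5.18 to 6.89 were consecutive, from S100a13 to S100a3. S100a4 and S100a6, with ratios of 1.53 and 2.24, followed, and the calprotectin genes stood at the far end. This arrangement was noticed with the values known. S100a1 and S100a13 are transcribed in opposite directions from a shared region, with 204 of the 300 bases of their promoters in common and gene spans that overlap by 98 bases. Since strand use in the counting is not given, reads of that overlap could count for either gene. Annotated exons of S100a3 and S100a4 overlap those of Gm42674 on the same strand, and S100a11 has a processed pseudogene, S100a11-ps, so these values are uncertain to that extent.

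**Figure D5:**
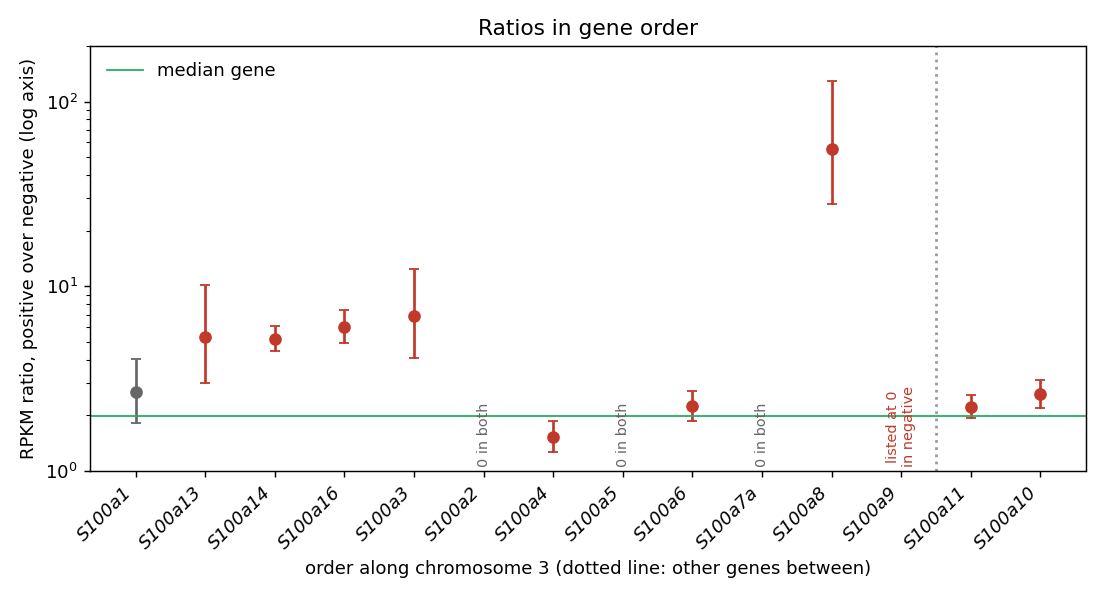
RPKM ratio of ZIP10-positive over ZIP10-negative cells (log axis) for S100 genes in their order along chromosome 3, members in red and S100a1 in grey, with exact binomial 95% intervals from estimated reads that cover counting error only; the green line is the median gene at 1.97. The run from S100a13 to S100a3 lies above the line, S100a4 lies below it, S100a6, S100a11 and S100a10 lie near it, and S100a8 stands highest.

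Erythroid markers were lower in ZIP10-positive cells, 7 of 8 by at least 2-fold as deposited and 8 of 8 relative to the median gene, and summed to 16378 against 283756 RPKM. Of the 8, 2 reached 1 RPKM in ZIP10-negative cells only and so had to be lower in ZIP10-positive cells. Hba-a1, Hbb-b2 and Hbb-b1 led this list at 9426, 2182 and 3380 RPKM against 160696, 46657 and 39407 RPKM. Endothelial markers were low, with 4 of 8 compared and summed levels of 26.9 and 5.996 RPKM. Of the 4, Egfl7 and Pecam1 reached 1 RPKM in ZIP10-positive cells only and so had to be higher there as deposited. On both scales 1 of the 4 was 2-fold or more higher and none lower. It was Egfl7, at 16.5 against 0.32 RPKM, which held most of the summed difference, while Pecam1, Cldn5 and Esam had ratios of 2.56, 1.95 and 1.08. Melanocyte markers, led by Dct, Pmel and Mlana at 118, 79.4 and 53.1 RPKM against 73.3, 53.5 and 33.0 RPKM, had none of 9 at least 2-fold apart as deposited and 2 lower relative to the median gene.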

How the data were processed

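Values were RPKM as deposited, going by the table's own name, at 1 per gene symbol and library. Per the submitters' processing notes, cutadapt, TopHat, Cufflinks and mm9 were used; for their versions, settings, annotation and strand use: not given in the sources used here.

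Values were compared as log2((positive + 1)/(negative + 1)) where at least 1 library reached 1 RPKM. Rescaled values divide the zero point (log2 0.98 for the median gene, 1.32 outside the 50 most abundant genes, 1.39 without globin genes and Rn45s) between the libraries.

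Depth came from ratios of whole numbers up to 20, which 64.7% of 1389 genes at 1 RPKM or less had at a tolerance of 0.0012%, and from GENCODE vM21 lengths less an assumed offset of 199 bases. The commonest depth had 33.9% of 109 single-transcript genes within 1.4%. A member's reads were the largest multiple of its fewest whole reads within the length-based estimate, and at least those reads. Levels have exact Poisson and ratios exact binomial (Clopper-Pearson) intervals. Reads carry no molecular identifiers.

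Named are all members, the 5 genes most like S100a8, S100a3 and S100a11, and up to 3 of the most abundant genes of each list, with all S100, receptor and deiminase genes; some others, such as Camp, Prtn3, Ltb4r1, Psmg4, Egfl7 and neutrophil and cuticle genes at 0, were named with values known. Members and lists were chosen with earlier results of these data known. All 10 member symbols matched RefSeq (GRCm38.p6), the source of the promoters. The depth estimate and the 2-fold calls as deposited were tested on simulated data. These data were built with the same lengths and offset, so that assumption was not tested, nor were the scalings and intervals. Software was scipy 1.17.1, numpy 2.4.6 and pandas 2.3.3 under Python 3.11.15.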

Additional observations from a re-analysis of the deposited data

How the results depend on the processing

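The median log2 ratio of the 10 members, 2.33 as deposited, was 1.38 relative to the median gene, 1.04 when scaled on genes beyond the top 50 and 0.97 when scaled with globin genes and Rn45s left out. The count of members at least 2-fold apart, 9 as deposited, was 6, 6 and 4 under these scalings, all of them higher. On the log2 scale S100a6 and S100a11 turned lower, to -0.16 and -0.17 under the first of the last 2 scalings and to -0.23 and -0.24 under the second, where S100a10 stood at -0.0074. Each follows from the zero point of the scaling. Other pseudocounts (0.1 and 5) and filters left both counts as they were, except that a minimum of 1 RPKM in both libraries drops S100a9 and gave 8 and 5. S100a9 passed the main filter through ZIP10-positive cells only and so had to be higher. The share of all genes at least 2-fold apart was not taken under the stricter filter. The log2 ratio of S100a9, 9.05 with a pseudocount of 1, was 12.37 and 6.74 with pseudocounts of 0.1 and 5, a larger move than any scaling gave for a member. Setting S100a9 to 3 reads in ZIP10-negative cells, chosen after seeing the data, left the median at 2.33. No paired analysis was possible because each group has 1 library. Depth limits S100a9, with 0 reads and no ratio, and then S100a8, S100a13 and S100a3, with 8, 14 and 16 reads in ZIP10-negative cells.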

Other observations

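Other genes with ratios like that of S100a8 were less abundant. Among genes at 1 RPKM or more in both libraries, BC100530, a stefin-like gene whose relatives can share its reads, had the highest ratio, 115, at 268 against 2.33 RPKM. Lst1, a leukocyte-specific transcript, followed at 139 against 1.74 RPKM, a ratio of 80.0. Next after S100a8 came Tpsb2, a mast cell tryptase, at 129 against 2.499 RPKM, and Alox5ap, which activates leukotriene synthesis in leukocytes, at 169 against 3.40 RPKM. These genes were named after their values were seen. S100a8, at 865 RPKM, was the most abundant of these 5 genes in ZIP10-positive cells.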
